A study of Mus musculus with 16 samples.

Results

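Splenic B cells of B6.Sle2c1 congenic mice (Sle2c1) were compared with those of C57BL/6 mice (B6) on all the probe sets of 8 Affymetrix arrays, the 4 arrays of each strain whose titles name splenic B cells (Bs), out of 16 in the series. The other 8 arrays hold peritoneal B1a cells of the same strains and are used here for comparison. All mice were 5 months old. The splenic cells were CD43-negative cells from a commercial B cell kit, more than 90% B220hi by the labels, and the B1a cells were enriched with a CD5 antibody to 80% B220int CD5+. The Sle2c1 mice carry, on the B6 background, an NZM2410-derived segment with Cdkn2c in it, from a strain prone to lupus, so that any gene of that segment can differ in sequence as well as in expression. The design text calls the 4 arrays of a group biological replicates. No label says whether a replicate was 1 mouse or a pool, what the sex of the mice was, or what the replicate numbers 1 to 4 stand for, and the p-values measure only the spread between these arrays. In a bulk sample, fewer cells of a type and less RNA per cell cannot be told apart.

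Cdkn2c encodes p18INK4c, which binds Cdk4 and Cdk6 and keeps them from phosphorylating the retinoblastoma protein (Rb1). Unphosphorylated Rb1 holds E2F transcription factors inactive, and E2F factors drive the genes of DNA replication and, through further factors, those of mitosis. Most splenic B cells are resting follicular cells. A minority are dividing germinal centre cells or plasmablasts, and p18INK4c is known to restrain cycling in late B cell differentiation.

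The promoter windows of the genes on which the results turn are shown first, because Cdkn2c is the gene the series is named for, Tceanc2 gave the largest difference, and Ccnb2 and Cks2 are the mitotic genes described below. Each window holds 280 bases of the C57BL/6J reference (RefSeq, GRCm38.p6), from 250 before the annotated start to 30 after it, in the direction of transcription. Capitals mark CCAAT boxes and TTTGAA elements (the core of the CHR element of mitotic promoters), searched on both strands, so that ATTGG is a CCAAT box read backwards. Cdkn2c has 2 annotated starts, at chr4:109666727-109667006 and chr4:109665343-109665622, both on the minus strand. Tceanc2 is at chr4:107178337-107178616 (minus), Ccnb2 at chr9:70421525-70421804 (minus) and Cks2 at chr13:51644982-51645261 (plus). The Sle2c1 alleles were not analysed here.
Cdkn2c (start 1): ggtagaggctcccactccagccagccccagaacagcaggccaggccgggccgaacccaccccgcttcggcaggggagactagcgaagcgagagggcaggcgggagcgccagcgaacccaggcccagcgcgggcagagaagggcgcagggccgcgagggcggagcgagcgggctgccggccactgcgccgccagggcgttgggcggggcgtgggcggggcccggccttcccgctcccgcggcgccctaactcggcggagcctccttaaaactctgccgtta
Cdkn2c (start 2): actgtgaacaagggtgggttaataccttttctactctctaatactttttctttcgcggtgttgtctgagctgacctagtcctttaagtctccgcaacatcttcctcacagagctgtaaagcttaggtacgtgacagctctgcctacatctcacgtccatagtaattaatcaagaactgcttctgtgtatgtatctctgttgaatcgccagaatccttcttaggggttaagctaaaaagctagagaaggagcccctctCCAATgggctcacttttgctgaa
Tceanc2: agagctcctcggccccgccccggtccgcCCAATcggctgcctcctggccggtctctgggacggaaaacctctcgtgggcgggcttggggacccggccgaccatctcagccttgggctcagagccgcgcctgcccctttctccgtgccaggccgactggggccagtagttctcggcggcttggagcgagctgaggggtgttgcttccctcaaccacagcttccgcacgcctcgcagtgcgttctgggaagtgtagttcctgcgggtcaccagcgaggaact
Ccnb2: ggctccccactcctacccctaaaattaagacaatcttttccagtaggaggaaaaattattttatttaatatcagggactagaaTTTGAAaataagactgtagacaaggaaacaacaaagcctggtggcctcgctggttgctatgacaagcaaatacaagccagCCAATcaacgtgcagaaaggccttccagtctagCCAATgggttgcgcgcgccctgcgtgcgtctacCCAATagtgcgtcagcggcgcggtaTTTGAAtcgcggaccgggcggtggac
Cks2: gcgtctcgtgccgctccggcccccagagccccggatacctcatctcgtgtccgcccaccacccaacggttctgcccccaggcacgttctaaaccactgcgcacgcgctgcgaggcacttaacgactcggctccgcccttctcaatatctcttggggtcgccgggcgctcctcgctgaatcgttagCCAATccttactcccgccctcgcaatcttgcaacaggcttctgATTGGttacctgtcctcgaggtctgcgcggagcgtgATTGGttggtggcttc

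The Cdkn2c window at the first start held none of the searched motifs, the second start and Tceanc2 held 1 CCAAT box each, Ccnb2 held 3 CCAAT boxes and 2 TTTGAA elements, and Cks2 held 3 CCAAT boxes. E2F sites (TTTCCCGC, TTTGGCGC, TTTCGCGC or TTTGCCGC) were in none of the 5 windows. Of the first listed starts of 27025 genes, 36.6% held a CCAAT box, 17.4% a TTTGAA element and 2.16% an E2F site. The corresponding shares were 75.8%, 57.6% and 3.03% for 33 genes of a mitosis list and 66.7%, 12.5% and 29.2% for 24 genes of an S phase list. A match describes the letters of the window only.

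Values are given in units of the deposited score, whose scale is not given in the sources used here, and a difference is never a fold. Each splenic array had a single lowest value shared by 22.8% to 25.8% of its probe sets. All values below 0.495 were therefore raised to 0.495, called the floor, and a group wholly at the floor gives only a bound. A difference is called higher or lower in Sle2c1 at an adjusted p under 0.05 (limma, two-sided, Benjamini-Hochberg over 22727 features, of which 15129 are named genes), in a fit of all 16 arrays. Correlations between splenic arrays were 0.781 to 0.969 within a strain and 0.825 to 0.977 between strains. Arrays 1 and 3 of B6 and array 3 of Sle2c1 stood apart: their hybridisation controls cre and bioB differed by 1.69, 0.693 and 0.803 units, against 1.02 to 1.22 on the other 5 arrays. Calls lost without these 3 arrays are named below.

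As a check of the B cell label, 9 of the 10 measured B cell markers lay above the floor on all 8 arrays, as did 11892 of all 22727 features. Ms4a1 (CD20) averaged 3.99 in B6 and 3.98 in Sle2c1, and Cd79b 3.74 and 3.71. The exception was Pax5, a transcription factor of B cell identity, which was at the floor on 2 arrays of each strain. None of the 10 had an unadjusted p under 0.05, and their median difference was 0.00 units. Spn, which encodes the CD43 that the kit selects against, read 1.64 ± 0.123 units (SD, n = 4) in B6 and 1.43 ± 0.198 in Sle2c1 (limma adjusted p = 1). Cd3d of the T cell receptor complex was at the floor on all 8 arrays. It was the only 1 of 10 measured T cell markers to be so, and 4 of the 10 were above the floor on all 8. Markers of other cells were above it on all 8 arrays too: 8 of 10 for NK cells, 11 of 18 for macrophages and monocytes, 5 of 12 for neutrophils and 6 of 9 for erythroid cells. Beside the 11892 of 22727 features above it, these counts do not by themselves show that such cells were present.

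In splenic B cells few transcripts differed between the strains. Of 22727 features, 28 (0.123%) were higher in Sle2c1 and 7 (0.0308%) lower, 0.154% in all, among them 19 and 5 named genes. The lower genes were led by Tceanc2 and Cdkn2c, both on chromosome 4. The higher genes were led by Elf5, Ang and Ric3, nearly all of them with no signal or a faint one in B6. At an unadjusted p under 0.05 there were 778 features (3.42%), 433 higher and 345 lower. Over all features the median difference was 0.015 units. Only 3 of the 11892 features that exceeded the floor on each splenic array passed.

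Those counts depended on how the arrays were handled. In a fit of only the 8 splenic arrays, without the B1a arrays, 21 features were higher and 7 lower. Of the 35 calls 15 held there, 8 of them among the 24 named genes, with Tceanc2 and Cdkn2c (adjusted p = 0.0221) among these. Named genes that did not pass in it included Elf5 (0.158), Ang (0.235), Ric3 (0.0802), Plpp2 (0.151), Pld1 (0.151), Zfp518b (0.0879) and Pawr (0.186). Arrays of equal replicate number deviated together to some degree, though not always more than arrays of unlike number. With the number as a block in a fit of the 8 splenic arrays 1 feature passed, Tceanc2 (adjusted p = 0.0115), while 1702 had an unadjusted p under 0.05. For the other 34 called features the blocked adjusted p was 0.0821 to 0.634. With that block inside the 16-array fit, an alternative added after the data were seen, 24 were higher and 9 lower, and 28 of the 35 calls held. Without B6 array 3 the counts were 47 higher and 16 lower, and without B6 array 2 they were 17 and 5. Without the 3 arrays that stood apart they were 20 and 5, with 17 of the 35 calls held, 11 of them among the 24 named genes. After quantile normalization 9 were higher and 5 lower, with 14 calls held, so that the split between directions depended on the scaling.

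**Figure D1:**
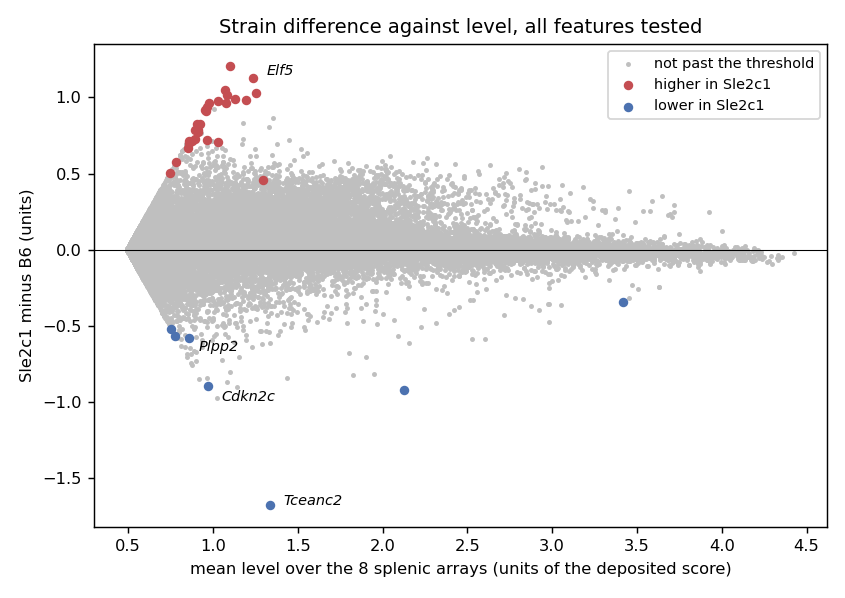
Difference between strains (Sle2c1 minus B6, vertical axis) against the mean level over the 8 splenic arrays (horizontal axis), both in units of the deposited score, for the 22727 features tested. Red points are the 28 higher and blue points the 7 lower features at adjusted p under 0.05, and grey points did not pass. Most called features sit at the left, near the floor of 0.495 units, and 1 called feature lies above 3 units.

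Cdkn2c was lower in Sle2c1. Its only probe set read 1.43, 1.39, 1.21 and 1.63 units on B6 arrays 1 to 4 and 0.60 on Sle2c1 array 1, and lay at the floor on Sle2c1 arrays 2 to 4. No B6 value was as low as the highest Sle2c1 value. The difference was -0.89 (SE 0.103, adjusted p = 0.00114, lower in 4 of 4 pairs). Permuting the 8 arrays exactly gave a two-sided p = 0.0286, the smallest that 70 arrangements allow, and its paired form gave p = 0.125, the smallest that 4 pairs allow. The call held without each single array (adjusted p 0.00185 to 0.00722) and without the 3 arrays that stood apart (0.0233), and in the 16-array fit with the block (0.00553). It did not hold with the block in the 8 splenic arrays (0.242), with a floor at 1 unit (0.0704) or with no floor (1). In B1a cells the difference was -0.60 (adjusted p = 0.00392), and the strain effects of the 2 cell types did not pass a test of their difference (-0.29, adjusted p = 0.71).

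Among 17 measured genes of a list of cell cycle regulators, only Cdkn2c passed. Cdkn2d, which encodes the related inhibitor p19INK4d, read 1.80 in B6 and 1.83 in Sle2c1, and Cdkn1b (p27) 3.86 and 3.84. Both targets of p18INK4c, named for their role, had overlapping groups: Cdk4 differed by -0.02 and Cdk6 by -0.24 (adjusted p = 1 for each), and Rb1 by 0.07 (adjusted p = 1). Among the D cyclins, which activate these kinases, Ccnd2 differed by -0.14 and Ccnd3 by -0.24 (adjusted p = 1 for each). Ccnd2 had 6 other probe sets, all 6 of them below B6 and 4 with an unadjusted p under 0.05 (limma). The 1 other probe set of Ccnd3 lay below B6 too, without such a p. Cyclin A2 (Ccna2), made in S phase and G2, read 2.70, 2.68, 2.43 and 2.68 units in B6 and 2.22, 2.25, 2.14 and 2.28 in Sle2c1. Its groups did not overlap, but the difference of -0.40 did not pass (SE 0.113, adjusted p = 0.537). The list had 2 members with an unadjusted p under 0.05, Cdkn2c and Ccna2, both below B6 (1.52% of all features), and a median difference of -0.06.

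Tceanc2, which encodes a protein with the N-terminal domain of transcription elongation factor TFIIS, lies 35 named genes from Cdkn2c. Its only probe set read 2.20, 2.21, 2.16 and 2.12 units in B6 and none of the 4 Sle2c1 arrays exceeded the floor. The difference was thus at least 1.68 units in size (-1.68, SE 0.0732, adjusted p = 3.95e-08). It was the one call that held under each of the alternatives run (adjusted p up to 0.0295). B1a cells showed the same (-1.27, adjusted p = 2.57e-07), with no signal above the floor on any Sle2c1 array. Whether the transcript or only the match of the probes to the allele differed was not tested, here or for Cdkn2c and the other genes nearby.

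Of the 100 named genes nearest to Cdkn2c, 50 on either side, Tceanc2 was the only other one to pass, and the median difference was -0.01. Ndc1, which encodes a nucleoporin of the nuclear pore ring, read 2.25, 2.27, 2.06 and 2.37 units in B6 and 1.47, 1.5, 1.24 and 1.45 in Sle2c1. Its groups lay far apart, yet the difference of -0.82 did not pass (adjusted p = 0.104), while in B1a cells Ndc1 was lower by a passing difference of -1.01 (adjusted p = 0.00303). Neither of its 2 other probe sets had an unadjusted p under 0.05, although both differed in the same direction. Faah, which encodes the hydrolase that breaks down the endocannabinoid anandamide, read 1.28, 0.98, 0.495 and 0.94 units in B6 and 1.91, 1.87, 1.75 and 1.63 in Sle2c1. Here the difference ran the other way, 0.87, without passing (adjusted p = 0.066). Its B1a difference was -0.44, and Faah was the neighbour whose strain effects differed between cell types (1.30, SE 0.232, limma adjusted p = 0.0248). A second Faah probe set was at the floor on 6 of the 8 arrays.

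**Figure D2:**
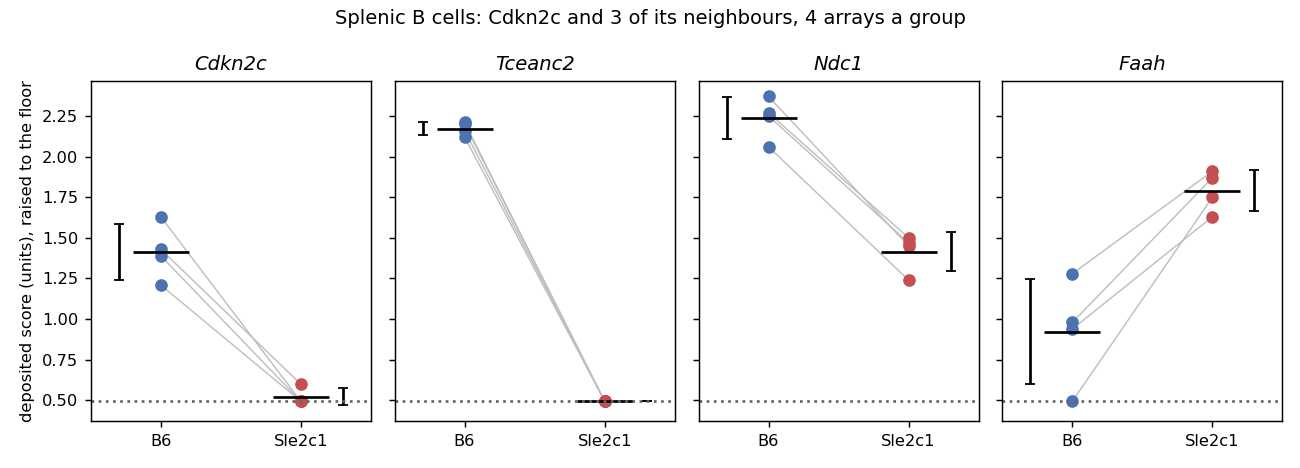
Level on each splenic array (vertical axis, units of the deposited score after the floor) of Cdkn2c and its neighbours Tceanc2, Ndc1 and Faah in B6 (blue) and Sle2c1 (red), 4 arrays a strain. Horizontal bars are means, vertical bars the SD, grey lines join equal replicate numbers and the dotted line is the floor of 0.495. In each panel the strains do not overlap, with Faah the panel in which Sle2c1 lies above B6.

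The other lower genes had faint signals in B6. Plpp2, a lipid phosphate phosphatase, read 1.21, 0.89, 1.20 and 1.30 units in B6 and 0.495, 0.54, 0.68 and 0.55 in Sle2c1, a difference of -0.58 (SE 0.0862, adjusted p = 0.00891). Lrp12, a receptor of the LDL receptor family, read 0.90, 1.02, 1.15 and 1.18 in B6 and was at the floor in Sle2c1, a difference of at least 0.57 in size (adjusted p = 0.000542). Pawr, which encodes the pro-apoptotic protein Par-4, read 0.84, 1.02, 0.93 and 1.27 in B6 and was at the floor in Sle2c1, at least 0.52 in size (adjusted p = 0.0224). For all 3 genes the groups did not overlap, as for all 7 lower features, which were chosen on these same values. The strain effect of Plpp2 differed from that in B1a cells (limma, adjusted p = 0.0102), where Plpp2 differed by 0.19. Lrp12 passed the same test (adjusted p = 0.00576), but it was at the floor in B1a cells of both strains, so no B1a effect was measured. Only splenic B6 arrays were above the floor for Lrp12, and the spread behind its p-values came from these arrays alone. Plpp2 did not pass without the 3 arrays that stood apart (0.178). Pawr was lost without B6 array 2 or without any 1 of the Sle2c1 arrays (adjusted p 0.0641 to 0.0989), and a second Pawr probe set differed by 0.18 in the opposite direction.

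A pair of unnamed probe sets completed the lower calls, and both had clear signals in both strains. Probe set 1436691_x_at, assigned to several genes, read 3.61, 3.65, 3.52 and 3.58 units in B6 and 3.27, 3.26, 3.28 and 3.18 in Sle2c1, without overlap and with a difference of -0.34 (adjusted p = 0.00553). It was lower in B1a cells too (-0.28, adjusted p = 0.00356), and did not pass in the spleen without the 3 arrays that stood apart (0.0593). Probe set 1420577_at, with no gene in the annotation used here, read 2.29, 2.76, 2.47 and 2.83 in B6 and 1.77, 1.57, 1.36 and 1.97 in Sle2c1, also without overlap. Its difference was -0.92 (adjusted p = 0.0327), and it did not pass without B6 array 2 or 4 or without Sle2c1 array 1, 2 or 3 (0.0745 to 0.156), nor without the 3 arrays that stood apart (0.0637). In all, 3 of the 7 lower features were lower in B1a cells as well (42.9% of the splenic calls and 0.912% of the 329 B1a calls), and 1.45% of all features were lower there.

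The higher genes were of many kinds, and several are best known from other tissues. Elf5, an ETS transcription factor of mammary and trophoblast cells, read 0.495, 0.495, 0.51 and 1.18 units in B6 and 1.74, 1.68, 1.70 and 2.08 in Sle2c1, and rose by 1.13 (SE 0.162, adjusted p = 0.00715). Ang, which encodes the ribonuclease angiogenin, read 0.90, 0.495, 0.495 and 1.06 in B6 and 1.70, 1.48, 1.76 and 2.13 in Sle2c1, and rose by 1.03 (adjusted p = 0.0135). Ric3, a chaperone of nicotinic acetylcholine receptors, read 0.77, 0.495, 0.495 and 0.54 in B6 and 1.60, 1.49, 1.35 and 1.93 in Sle2c1, and rose by 1.02 (adjusted p = 0.00403). In each of these genes at least 1 B6 array was at the floor. All 4 Sle2c1 arrays lay above all 4 B6 arrays, as in all 28 higher features, which were chosen on these same values. Without B6 array 2 Ang did not pass (0.0725), and Elf5 did not pass without the 3 arrays that stood apart (0.217), nor did Ang (0.235).

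Metabolic and signalling genes followed. Ppp1r3g, a subunit that directs protein phosphatase 1 to glycogen, rose by 0.99 from 0.70 ± 0.187 to 1.69 ± 0.166 units (SD, n = 4; adjusted p = 0.000545). Pth1r, the receptor of parathyroid hormone, rose by 0.98 to 1.52 ± 0.311 (adjusted p = 0.0221), and Lrat, which esterifies retinol, by 0.82 to 1.34 ± 0.22 (adjusted p = 0.0327). Pld1, a phospholipase D, rose by 0.72 to 1.32 ± 0.201 (adjusted p = 0.00448). Ppp1r3g held without each single array and without the 3 that stood apart (0.0259). Pld1 held without each single array but not without those 3 (0.0593), and it passed in 4 of 13 alternatives other than single arrays left out. Pth1r was lost without B6 array 1, 2 or 4 or Sle2c1 array 2 or 4 (0.0818 to 0.0989), and Lrat without any 1 of the arrays but Sle2c1 array 3 (0.0575 to 0.155). Neither passed with the block in the 16-array fit (0.073 and 0.0817) or without the 3 arrays that stood apart (0.0937 and 0.207).

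Ndn, which encodes the growth suppressor necdin of an imprinted locus, was at the floor on all B6 arrays and read 1.49, 1.52, 0.82 and 1.90 units in Sle2c1. It rose by at least 0.94 (adjusted p = 0.0211), but its 3 other probe sets differed by 0.03, 0.00 and -0.21, and the call was lost without B6 array 1, 2 or 4 or Sle2c1 array 1 or 2 (0.0725 to 0.0969). No array outside splenic Sle2c1 was above the floor for Ndn, so the spread behind its p-value came from the splenic Sle2c1 arrays alone. The filter of 4 arrays may thus have kept Ndn only through the group where it was high. Under the stricter filter of 8 arrays Ndn was not kept. In a limma fit of only the 8 splenic arrays Ndn did not pass (adjusted p = 0.452). Zfp518b, a zinc finger gene, was likewise at the floor in B6 and read 1.51, 1.47, 1.04 and 1.64 in Sle2c1, at least 0.92 higher (adjusted p = 0.005). Its other probe set differed the opposite way, by -0.39 (unadjusted p = 0.0219), and with no floor the called probe set itself differed by -0.84. Direction for Zfp518b therefore depended on the probe set and on the floor. The same caution holds for Vat1, a vesicle membrane protein, which rose by 0.78 on 1 probe set (adjusted p = 0.0346) while 1 of its 2 others differed by -0.23 and the second by 0.06.

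Structural genes and genes of testis made up the rest. Spock1, a proteoglycan, rose by 0.91 (adjusted p = 0.00384), Krt13, an epithelial keratin, by 0.71 (adjusted p = 0.0135), and Krt26, a keratin of the hair follicle, by 0.67 (adjusted p = 0.0475). Dnaaf6, an assembly factor of ciliary dynein, read 0.495, 0.495, 0.495 and 0.53 units in B6 and averaged 1.29 ± 0.115 in Sle2c1 (SD, n = 4). It rose by 0.79 (adjusted p = 0.000542), and Pxt1, expressed in testis, by 0.96 (adjusted p = 0.00891). Fam71b rose by 0.79 (adjusted p = 0.00496), and the RIKEN clones 4931429P17Rik, 4932437C15Rik and 1700034P13Rik rose by 0.72, 0.70 and at least 0.58 (adjusted p = 0.000687, 0.00163 and 0.0327). Pxt1 was lost without B6 array 2 (0.0527), Krt13 without B6 array 1 or 2 or Sle2c1 array 3 or 4 (0.0546 to 0.0725), and Krt26 without any 1 array (0.076 to 0.178). Vat1 was lost without any 1 array but Sle2c1 array 4 (0.0582 to 0.159), and 1700034P13Rik without any 1 but Sle2c1 array 3 (0.0569 to 0.155). With the block in the 16-array fit Krt26, Vat1 and 1700034P13Rik did not pass (0.117, 0.0975 and 0.079). Without the 3 arrays that stood apart these same genes did not pass (0.678, 0.266 and 0.102), nor did Spock1 (0.0774), Krt13 (0.0937), Pxt1 (0.126) or 4932437C15Rik (0.0864).

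The 9 unnamed higher probe sets included the largest rise of all, 1415951_at, at the floor in B6 and at 1.62, 1.78, 1.42 and 1.99 units in Sle2c1 (at least 1.21, adjusted p = 0.000545). Next came 1454553_at, which rose by 1.05 (adjusted p = 0.000228). Of these 9, 1442961_at, 1445279_at and 1457572_at did not pass without the 3 arrays that stood apart (0.217, 0.122 and 0.165). Over the 28 higher features, B6 means were 0.495 to 1.07 units and Sle2c1 means 1.00 to 1.80. All B6 arrays were at the floor for 7 of them, no more than 1 B6 array was above it for 20, and no more than 2 for 25. A group partly at the floor likewise gives only a bound. The floor also narrows the spread of such a group, and with it the spread behind the p-values. Most of these calls rest on where the floor lies: of all 35 calls 4 held with no floor and 12 with a floor at 1 unit. Where a called gene had other probe sets, none of them had an unadjusted p under 0.05 in the same direction.

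Of the 28 higher features 18 were also higher in B1a cells, 64.3% of the splenic calls and 4.1% of the 439 B1a calls, where 1.93% of all features were higher and 3.38% were called in either direction. Elf5 rose there by 1.29, Ang by 1.59 and Ppp1r3g by 1.34. The remaining 10 did not pass in B1a cells, and for some the test of the difference between the cell types passed: 4931429P17Rik (difference of effects 0.86, adjusted p = 0.00241), Fam71b (0.81, adjusted p = 0.0325) and the unnamed 1459382_at (0.63, adjusted p = 0.0299). Pld1 rose in both, by 0.72 in the spleen and 1.41 in B1a cells, and its effects also differed (-0.69, adjusted p = 0.0427). Ndn, at the floor on all 8 B1a arrays, did not pass that test (0.94, adjusted p = 0.0967).

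**Figure D3:**
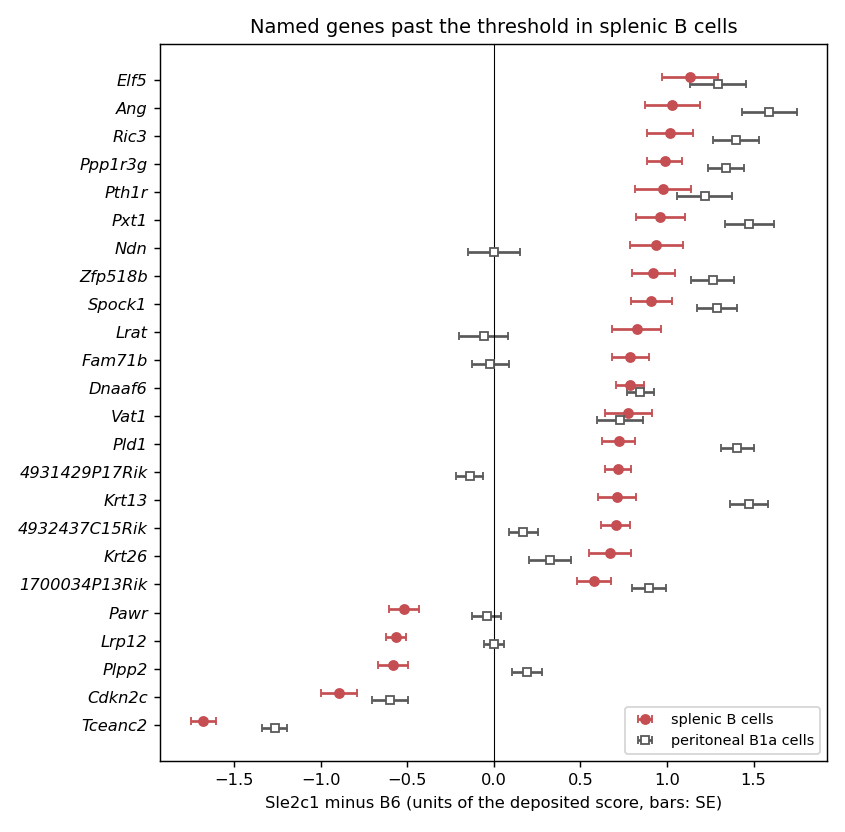
Strain difference (Sle2c1 minus B6, horizontal axis, units of the deposited score) of the 24 named genes past the threshold in splenic B cells, in splenic cells (red circles) and in B1a cells (grey squares), with bars for the SE. Most genes higher in the spleen lie to the right in B1a cells too, whereas Ndn, Lrat, Fam71b and 4931429P17Rik lie near 0 there. The genes were chosen for the red values, which are shown as a description.

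Downstream of the kinases, E2F factors and S phase genes did not pass in any single gene, and most lay below B6. All 9 measured E2F and DP factors had a difference below 0 (40.6% of all features did), and the median was -0.13. That direction was not particular to them. All 16 ribosomal protein genes, 19 of 21 type I interferon response genes and 17 of 21 oxidative phosphorylation genes also lay below 0. B cell markers lay 5 below and 5 above. Of the E2F and DP factors 2 had an unadjusted p under 0.05, against 1.52% of all features below B6. The count of 2 became 4 without B6 array 3 and 1 without B6 array 1 or 2 or Sle2c1 array 4. Over all features, in either direction, 2238 had such a p without B6 array 3, against 778 in the main fit. Without B6 array 1 or 2 or Sle2c1 array 4 the numbers were 600, 675 and 886. E2f1, an activator, read 1.27, 1.06, 0.495 and 0.89 units in B6 and 0.58 and 3 values at the floor in Sle2c1, a difference of -0.41 (adjusted p = 1) with overlap at the floor, and 1.93 with no floor. Its other probe sets differed by 0.05 and -0.02. Of 28 S phase genes 7 had an unadjusted p under 0.05 below B6 and none above, and the median was -0.14. The ribonucleotide reductase subunits, which make deoxynucleotides, differed by -0.32 (Rrm2, adjusted p = 0.95) and -0.37 (Rrm1, adjusted p = 0.991). DNA ligase Lig1 differed by -0.22 and the dUTPase gene Dut by -0.21 (adjusted p = 1 for each).

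Mitotic genes showed the same in more members. Of 39 measured, none passed over all features, 13 had an unadjusted p under 0.05 with Sle2c1 below B6 and none above, where all features had 1.52% below, and for 14 the lowest B6 array exceeded the highest Sle2c1 array (1.15% of all features; 1.19% had the strains apart the other way). In 18 genes all 4 pairs lay below (4.64% of all features). The median difference was -0.24. Cks2, a Cdk-binding subunit, read 2.69, 2.79, 2.64 and 2.68 units in B6 and 2.41, 2.35, 2.43 and 2.28 in Sle2c1, a difference of -0.33 (SE 0.0638, adjusted p = 0.0735), and its second probe set differed by -0.22 (unadjusted p = 0.00829). Cyclin B2 (Ccnb2), the partner of Cdk1 whose promoter is shown above, read 1.66, 1.83, 0.96 and 1.61 in B6 and 1.1 and 3 values at the floor in Sle2c1, a difference of -0.87 (adjusted p = 0.376). The kinetochore gene Ndc80 differed by -0.41 (adjusted p = 0.413) and topoisomerase Top2a by -0.36 (adjusted p = 0.519), both without overlap. A second Top2a probe set differed the opposite way, by 0.16, with overlapping groups (unadjusted p = 0.518).

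The average over the 39 mitotic genes was 1.56, 1.66, 1.64 and 1.58 units on B6 arrays 1 to 4 and 1.42, 1.40, 1.45 and 1.36 on the Sle2c1 arrays, so that the strains did not overlap. For the 28 S phase genes it was 2.08 to 2.26 units in B6 and 1.99 to 2.06 in Sle2c1. Across the 21 alternatives the median of the mitosis list ran from -0.32 to -0.16 and that of the S phase list from -0.22 to -0.13. The number of mitotic genes at an unadjusted p under 0.05 was 17 with the block in the 8 splenic arrays, 6 without the 3 arrays that stood apart, 7 without B6 array 2 and 4 with no floor. That of S phase genes was 12 without B6 array 3 and 4 without B6 array 1 or 2. The numbers over all 22727 features, in either direction, moved too, from 778 in the main fit. They were 1702 with the block in the 8 splenic arrays, 597 without the 3 arrays that stood apart and 760 with no floor. Without B6 array 1, 2 or 3 they were 600, 675 and 2238. In B1a cells the medians were -0.11 and -0.03. No member of either list passed the test that its strain effect differs between the cell types.

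**Figure D4:**
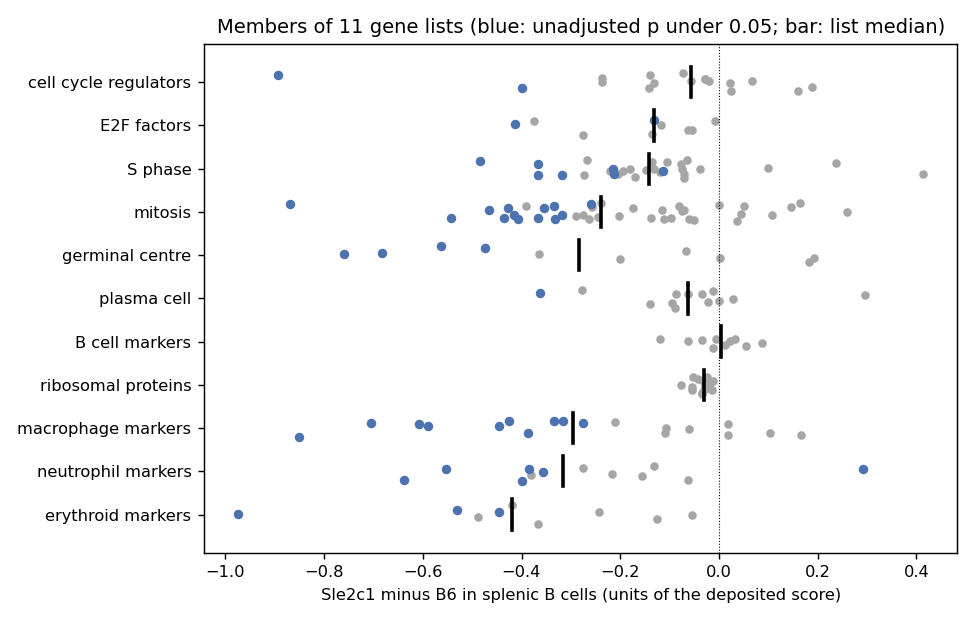
Strain difference in splenic B cells (Sle2c1 minus B6, horizontal axis, units of the deposited score) of each measured member of 11 gene lists. Blue points have an unadjusted p under 0.05, grey points do not, and the black bar is the list's median. Mitosis lies at a median of -0.24 and germinal centre genes at -0.28, macrophage, neutrophil and erythroid markers lie at -0.30, -0.32 and -0.42, and B cell markers and ribosomal proteins lie near 0.

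Genes of germinal centres, where activated B cells divide and mutate their receptors, had a median of -0.28 over 10 members, 4 of them with an unadjusted p under 0.05 below B6 (1.52% of all features). Basp1 read 3.10, 3.23, 3.08 and 3.47 units in B6 and 2.76, 2.62, 2.65 and 2.95 in Sle2c1, a difference of -0.48 without overlap (SE 0.0991, adjusted p = 0.118). Rgs13, a regulator of chemokine receptor signalling, read 1.82, 2.17, 2.04 and 2.54 in B6 and 1.46, 1.20, 1.51 and 1.67 in Sle2c1 (-0.68, adjusted p = 0.852), again without overlap. The ephrin gene Efnb1 differed by -0.56 and the sphingosine receptor S1pr2 by -0.76 (adjusted p = 0.315 and 0.62), and S1pr2 was at the floor on all Sle2c1 arrays and on B6 array 3. Bcl6, the master regulator of the germinal centre, is also expressed by other cells and differed by -0.07 (adjusted p = 1). The median of the list was -0.16 without Sle2c1 array 4, -0.44 without B6 array 1 and -0.54 without the 3 arrays that stood apart, and its count stayed at 4 below B6 in each of these. Over all features, in either direction, 886, 600 and 597 had such a p in these fits, against 778 in the main fit.

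Among 13 plasma cell genes only Igha, the IgA heavy chain, had an unadjusted p under 0.05 (1.52% of all features below B6), with 3.23 ± 0.206 units in B6 and 2.87 ± 0.182 in Sle2c1 (-0.36, adjusted p = 0.569). Prdm1, which encodes Blimp-1, differed by 0.30, Xbp1 by -0.14 and Ell2 by -0.09 (adjusted p = 1 for each). The lists of mature subsets had small medians, 0.05 for 7 follicular genes, 0.07 for 12 marginal zone genes, 0.02 for 7 transitional genes and 0.00 for 12 B1 genes. Not 1 of their members had an unadjusted p under 0.05. In the marginal zone list the groups did not overlap for Cd1d1, a lipid-presenting molecule, at 2.55 in B6 and 2.72 in Sle2c1 (adjusted p = 1).

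Markers of some cells other than B cells lay below B6 as well. Of 18 macrophage and monocyte markers 10 had an unadjusted p under 0.05 below B6, where 1.52% of all features did, and none above, and the median was -0.30. With a floor at 1 unit the median was -0.08 and the count 6, and with no floor the count was 5. Over all features, in either direction, 779 and 760 had such a p in these fits, against 778 in the main fit. The average over the list was 1.52 to 1.79 units in B6 and 1.26 to 1.51 in Sle2c1. C1qb, a chain of complement C1q, read 1.5, 1.67, 1.29 and 0.92 units in B6 and no Sle2c1 array was above the floor, a difference of at least 0.85 in size (adjusted p = 0.632), and so did C1qa, by at least 0.43 (adjusted p = 0.7). Apoe differed by -0.32 and the mannose receptor gene Mrc1 by -0.45 (adjusted p = 0.519 and 0.548).

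Neutrophil and erythroid markers showed the same. For 12 neutrophil markers the median was -0.32, with 5 at an unadjusted p under 0.05 below B6 (1.52% of all features) and 1, Ltf, above (0.29, named after its value was seen). S100a9 read 3.05, 3.06, 3.29 and 3.09 units in B6 and 2.71, 2.60, 2.99 and 2.59 in Sle2c1 (-0.40, adjusted p = 0.835), S100a8 differed by -0.36 (adjusted p = 0.881) and Mmp9 by -0.64 (adjusted p = 0.504), each without overlap. The second Mmp9 probe set was at the floor on all 8 arrays. Their average was 1.35 to 1.62 in B6 and 1.05 to 1.45 in Sle2c1. For 9 erythroid markers the median was -0.42, with 3 at an unadjusted p under 0.05 below B6, and Slc4a1, the band 3 protein of red cells, read 2.19, 2.09, 0.65 and 1.12 in B6 and 0.495, 0.67, 0.495 and 0.495 in Sle2c1 (-0.97, adjusted p = 0.552). The averages of 1.39 to 2.17 in B6 and 1.16 to 1.54 in Sle2c1 overlapped. Without B6 array 4 the erythroid count was 8 and without B6 array 1 it was 1, the median was -0.25 without B6 array 1 and -0.24 without Sle2c1 array 4, and the neutrophil count was 3 without Sle2c1 array 1 or 4. Over all features, in either direction, 750 had such a p without B6 array 4 and 600 without B6 array 1. Without Sle2c1 array 1 or 4 the numbers were 803 and 886, against 778 in the main fit.

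Of 10 NK cell markers 3 had an unadjusted p under 0.05 below B6 (1.52% of all features), Klre1, Gzma and Nkg7 (-0.37, -0.40 and -0.54, adjusted p = 0.376, 0.699 and 0.725), with a list median of -0.04. T cell markers had none in 10 and a median of -0.06. Dendritic cell markers (10) and mast cell, basophil and eosinophil markers (11) also had none, with medians of -0.05 and 0.00, as did 8 stroma and endothelium markers with a median of 0.17, which was -0.01 without B6 array 1. Among 3 platelet markers Gp9 differed by 0.57 (adjusted p = 0.654). The part of the other-cell markers in the mitotic, S phase and germinal centre values was not tested.

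**Figure D5:**
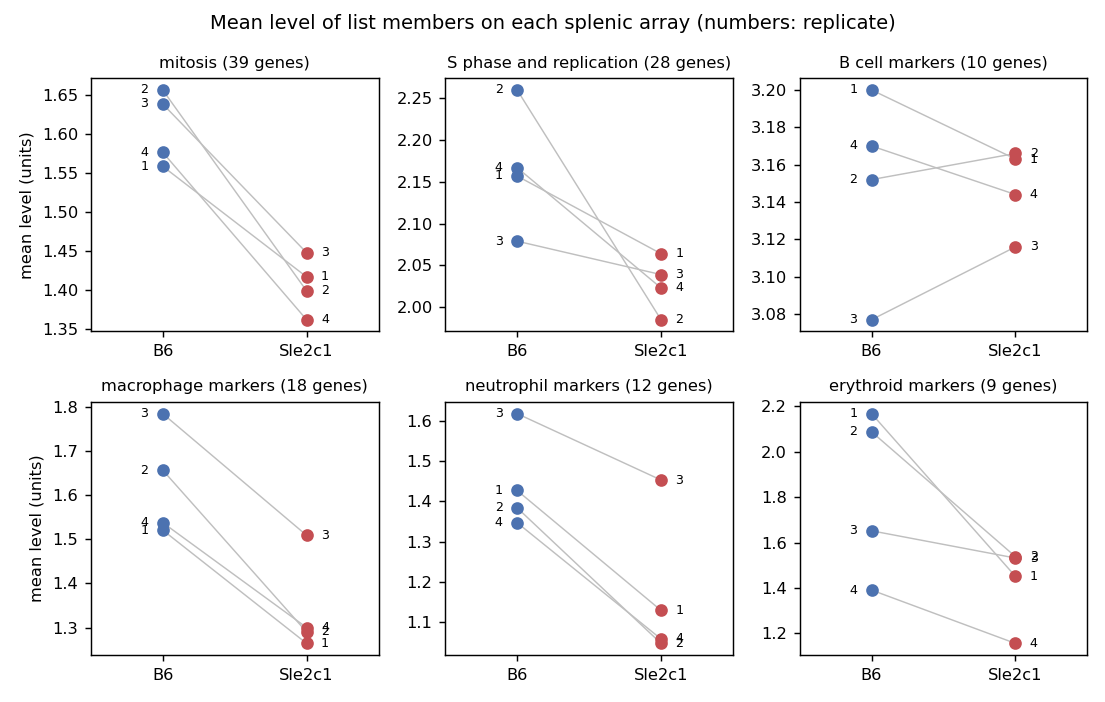
Mean level over the members of 6 gene lists (vertical axes, units of the deposited score after the floor, each with its own range and not starting at 0) on each splenic array of B6 (blue) and Sle2c1 (red). Numbers are replicate numbers and grey lines join equal ones. In all panels but that of B cell markers the mean of each Sle2c1 array lies below that of the B6 array of the same number.

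Signalling and antigen presentation showed no gene past the threshold. No member of the lists of B cell receptor signalling (15 measured), inhibitory receptors (12), B cell transcription factors (17), BAFF, CD40 and death receptors (11), Toll-like receptors (12), MHC class II (12) or NF-kB (12) had an unadjusted p under 0.05, and their medians were -0.02 to 0.04. The invariant chain gene Cd74 read 4.13 units in B6 and 4.07 in Sle2c1, and the kinase gene Blk 2.78 and 2.84. Of 12 genes for B cell cytokines and chemokines none had an unadjusted p under 0.05 (median -0.02). Type I interferon response genes (21) had a median of -0.11, with the deubiquitinase gene Usp18 differing by -0.40 (adjusted p = 1). In 24 immediate early and activation genes Jun, a part of AP-1, differed by -0.18 without overlap (adjusted p = 0.604) and Ier2 by -0.30 (adjusted p = 1), and the list's median was -0.03.

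Cxcr3, the chemokine receptor of activated and memory cells, read 1.32, 1.34, 1.01 and 1.21 units in B6 and 0.72 on array 2 of Sle2c1, with the floor on its other arrays (-0.67, SE 0.155, adjusted p = 0.223). It and S1pr2 were the members of 16 homing receptor genes with an unadjusted p under 0.05, both below B6 (1.52% of all features), and the list's median was 0.00. Heat shock genes (11) had a median of -0.10, with Hsph1 at -0.26 and without overlap (adjusted p = 1). ER stress (17), glycolysis (13) and oxidative phosphorylation (21) had medians of -0.02, -0.03 and -0.05, and 16 ribosomal protein genes one of -0.03. In the Bcl2 family (13) and among p53 targets (16) the pro-apoptotic gene Pmaip1 differed by 0.15 (adjusted p = 1), and the medians were 0.00 and 0.02. Ezh2, the methyltransferase of the Polycomb complex, differed by -0.20 without overlap (adjusted p = 0.552), in a chromatin list of 12 with a median of 0.01.

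Of the 10 named genes whose strain effects differed most between the cell types, 5 each way, all but Faah had a smaller strain difference in the spleen than in B1a cells. Of all features 98 (0.431%) passed that test, 38 (0.167%) with the splenic effect above the B1a effect and 60 (0.264%) below, and 6 of them were splenic calls. Timd4, Adamts4, Ackr3 and Lpl fell in B1a cells by 1.75, 1.25, 0.89 and 1.12 units, and their splenic differences were 0.17, 0.20, 0.41 and 0.18 (adjusted p 0.334 to 1). Timd4 is on the list of 18 macrophage and monocyte markers. Of these, 5 were lower in B1a cells at an adjusted p under 0.05 (limma), and 2 passed the test of the difference of effects. The part of other cells in the B1a values was not tested. Sall3, Olfr480, Tdpoz1, Limch1 and 1700073E17Rik rose in B1a cells by 1.24 to 1.42 units. In the spleen Sall3, Olfr480 and Tdpoz1 were at the floor on all 8 arrays, and the other 2 were above it on 1 array each. Ackr3, a scavenger receptor of the chemokine CXCL12, read 1.99, 2.05, 1.78 and 1.95 units in splenic B6 cells and 2.37, 2.32, 2.46 and 2.26 in Sle2c1, without overlap, and the difference between its effects was 1.30 (adjusted p = 0.000631).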

How the data were processed

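The authors' table holds 45101 probe sets, 64 being array controls, on 16 arrays (8 splenic). Per the labels, RNA was amplified and labelled with the NuGEN Ovation system. The deposited values are a score with no stated scale; the software that made it is not given in the sources used here. Its hybridisation controls lie too close together for log2, which the planned design had assumed. Arrays carry no counts or depth, so their number limits the precision.

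The platform annotation gives 34945 probe sets 1 gene, 932 several and 9224 none. Symbols were updated by Entrez ID through RefSeq (GRCm38.p6, 99.42% matched). A probe set was kept if it exceeded the 40th percentile of 4 or more of the 16 arrays (35032), values below 0.495 (the median of those percentiles) were raised to it, and each gene was represented by its probe set of highest mean, leaving 22727 features. limma 3.58.1 (R 4.3.3, statmod 1.5.0) fitted 4 group means over 16 arrays; its tests are two-sided, and p-values were adjusted by Benjamini-Hochberg across all features, with 0.05 as the threshold. The fit was also run on simulated arrays with independent noise, with changes placed only in features well above the floor. That run therefore does not bear on calls at the floor or on arrays that deviate together.

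Deviations from group means correlated at 0.387, 0.112, 0.621 and 0.431 between strains for equal numbers 1 to 4. Some arrays of unlike number correlated more: B6 array 1 with Sle2c1 array 4 (0.426), and B6 array 2 with Sle2c1 array 3 (0.141). The numbers were taken as pairs on the ground of the equal-number values, since no label explains them, and the pairing is uncertain.

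Genes named are Cdkn2c, all named genes past the threshold, neighbours of Cdkn2c (50 on either side) at adjusted p under 0.10, up to 4 members of each of 39 lists (596 genes, 511 measured), B cell markers and Spn, and the 5 genes each way with the largest difference of strain effects. Other genes were named for their role or after their values were seen. The members and lists were chosen with earlier results of these data known. The alternatives were other floors, filters, scalings, probe set rules, forms of the test, blocks, and arrays left out. The table had no column of unknown sample.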

Additional observations from a re-analysis of the deposited data

Results flagged for a closer look

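Among 118 groups of 4 splenic arrays with all values above the floor, 10 held an array far from the other 3 (gap over range above Dixon's critical value for 4 samples); chance gives about 1 in 20. Sle2c1 array 4 stood out in 5 of these. It was high for Elf5 (2.08 units, others 1.68 to 1.74), for 1454553_at (1.90, others 1.47 to 1.51) and for Dut (2.50, others 2.37 to 2.38). It was low for Tfdp1 (2.72, others 2.83 to 2.85) and for the Cdkn2c neighbour Yipf1 (0.97, others 1.37 to 1.44). B6 array 3 was low for Ccna2 (2.43, others 2.68 to 2.70) and high for S100a9 (3.29, others 3.05 to 3.09). B6 array 1 was high for Apoe (1.06, others 0.73 to 0.74), Sle2c1 array 1 for Ier2 (1.00, others 0.51 to 0.56) and Sle2c1 array 3 for Mrc1 (1.77, others 1.27 to 1.34).

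The strain effect differed between splenic and B1a cells (limma interaction, adjusted p under 0.05; splenic effect minus B1a effect in units) for these genes of the text. Plpp2 (-0.78), Lrp12 (-0.57) and Pld1 (-0.69) had the splenic effect below the B1a effect. For Lrp12, at the floor on all B1a arrays, no B1a effect was measured. 4931429P17Rik (0.86), Fam71b (0.81), 1459382_at (0.63) and the macrophage marker Apoe (0.89) had it above. By size, the largest above were the macrophage marker Timd4 (1.92), Adamts4 (1.45), Faah (1.30), Ackr3 (1.30) and Lpl (1.30). The largest below were 1700073E17Rik (-1.45), Olfr480 (-1.42), Sall3 (-1.36), Limch1 (-1.32) and Tdpoz1 (-1.24). Olfr480, Sall3 and Tdpoz1 were at the floor on all splenic arrays, so no splenic effect was measured for them.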

How the results depend on the processing

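Main splenic counts were 28 higher and 7 lower. Higher moved to 0 with the replicate block (8 arrays), 16 with no floor, 16 with a floor at 1, 9 after quantile normalization, 12 after median centring, 17 with trend and robust, and 17 to 47 with single arrays left out. Lower moved to 1 with the replicate block, 13 with no floor, and 5 to 16 with single arrays left out (16 without B6 array 3). Cdkn2c kept its direction but did not pass with the replicate block (-0.89, adjusted p = 0.242), no floor (-4.82) or a floor at 1 (-0.42, adjusted p = 0.0704); it passed in the other alternatives run. In B1a cells, 439 higher became 255 with no floor, 281 with a floor at 1 and 284 with the stricter filter (8 arrays), 353 to 486 with single splenic arrays left out; 329 lower became 183 with no floor, 574 with every probe set, 250 to 376 with single arrays left out. For the difference of effects, 38 above became 12 with the stricter filter, 71 with every probe set, 18 after centring, 5 with trend and robust, 12 without the 3 arrays that stood apart, 16 to 41 with single arrays left out; 60 below became 13, 91, 27, 5 and 26 in the same order, 32 to 56 with single arrays left out. Signs reversed for E2f1 (1.93) and Zfp518b (-0.84) with no floor, and for Yipf1 with single arrays left out (-0.135 to 0.0217, above 0 without Sle2c1 array 4). The causes were not tested. Fits of the 8 splenic arrays give no B1a value or difference of effects. The main limits are 4 arrays a strain, an unknown scale, and calls at the floor, where signal cannot be told from background.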

Other observations

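A further 11 features had an adjusted p between the threshold of 0.05 and 0.10 (limma); besides Faah and Cks2 they were picked after their values were seen, and none passed. Below B6 lay Clrn1, which encodes clarin of sensory cells (-0.84, adjusted p = 0.0526), Timd2, a receptor of the TIM family (-0.56, adjusted p = 0.0961), and Kntc1, a kinetochore component that was not on the mitosis list. Kntc1 read 1.09, 1.12, 1.07 and 1.00 units in B6 and 0.62 on Sle2c1 array 4, with the floor on its other arrays (-0.54, adjusted p = 0.0866). Above B6 lay Hyi, 63 named genes from Cdkn2c, with 1.52, 1.40, 1.13 and 1.43 units in B6 and 1.77, 1.80, 1.83 and 1.98 in Sle2c1 (0.48, adjusted p = 0.0745). In B1a cells Hyi differed by 0.31 (adjusted p = 0.0932). The others above B6 were the dopamine transporter gene Slc6a3 (0.65, adjusted p = 0.083), Necab1 (0.65, adjusted p = 0.0936), Btbd11 (0.62, adjusted p = 0.053), the unnamed 1454339_at (0.54, adjusted p = 0.066) and Enho, which encodes the peptide adropin (0.51, adjusted p = 0.0631). Slc6a3, Necab1 and Enho were at the floor on all 4 B6 arrays, and Necab1, Btbd11 and Enho were higher in B1a cells (0.93, 1.19 and 1.07).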
